A study of Homo sapiens with 24 samples.

Results

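Collagens and integrins, the fibre-forming proteins of the extracellular matrix and the receptors that hold cells to it, were followed in 4 human cancer cell lines treated with EPZ015666. The members are every gene of the deposited expression table whose symbol has the form of a collagen chain (COL, a type number, A and a chain number) or of an integrin subunit (ITGA or ITGB with a number, or ITGAV). This rule found 37 genes, 24 collagens and 13 integrins, among the 16591 gene symbols of the table. GENCODE release 29 holds 64 protein-coding symbols of the same form, and the others were not analysed here. EPZ015666 is a small-molecule inhibitor of PRMT5, an enzyme that places symmetric dimethyl marks on arginines of histones, splicing factors and other proteins.

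The lines were BT549 and MDAMB436, from breast cancer, and OVCAR8 and COV362, from ovarian cancer. Each was exposed to DMSO, the vehicle, or to 5 µM EPZ015666. BT549 and OVCAR8 were sampled after 3 and 5 days and COV362 and MDAMB436 after 5 days, each line being an established culture with no genetic change introduced for the study as far as the labels say. Stranded RNA sequencing of poly(A) RNA gave 24 libraries in 12 groups of 2, the members of a pair being called A and B. Whether A and B were grown as independent cultures is not stated in the labels. If they were not, a p-value here reflects technical scatter alone. Levels are in RPKM, reads per kilobase of gene and per 1 M reads, and the kilobases in the deposited values are those of the whole gene with its introns. RPKM is therefore compared between samples for 1 gene, and levels of different genes are compared only after rescaling to kilobases of exon. Whether reads in introns were counted is not given in the sources used here. If they were, the rescaled levels stand too high for genes with long introns, and the order of genes is affected.

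A collagen is a trimer of chains that wind into a triple helix, which requires a glycine at regular intervals, as the first residue of each Gly-X-Y repeat. Fibrillar collagens (types I, III, V, XI and XXVII among those measured) form the load-bearing fibres, type IV forms the sheet-like network of basement membranes, type VI forms beaded filaments around cells, and fibril-associated collagens (types IX, XII, XVI and XXII) decorate fibres. Integrins are heterodimers of an alpha and a beta subunit, and the pair sets the ligand: ITGB1 joins most alpha subunits, ITGA3 with ITGB1 and ITGA6 with ITGB4 bind laminin, ITGA1, ITGA2 and ITGA10 with ITGB1 bind collagen, and ITGAV with ITGB5 or ITGB8 binds the RGD motif of vitronectin or of latent TGF-beta. In carcinoma cells these genes set which matrix is laid down and which matrix the cells can grip.

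The property that unites the collagen members, and that the rule on symbols did not use, can be read in their coding sequences. Below are the first 15 repeats of the longest uninterrupted Gly-X-Y run of the 2 marker genes, COL3A1 and COL6A2, and of COL1A1, in the GENCODE 29 transcripts on GRCh38, 5′ to 3′, with the glycine codons in capitals.
COL3A1: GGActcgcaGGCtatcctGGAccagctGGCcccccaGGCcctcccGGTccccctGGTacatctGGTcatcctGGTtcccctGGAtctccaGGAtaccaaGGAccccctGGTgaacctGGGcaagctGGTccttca
COL1A1: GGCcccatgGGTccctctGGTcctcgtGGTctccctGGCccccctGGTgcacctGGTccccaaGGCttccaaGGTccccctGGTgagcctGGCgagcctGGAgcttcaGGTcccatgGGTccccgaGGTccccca
COL6A2: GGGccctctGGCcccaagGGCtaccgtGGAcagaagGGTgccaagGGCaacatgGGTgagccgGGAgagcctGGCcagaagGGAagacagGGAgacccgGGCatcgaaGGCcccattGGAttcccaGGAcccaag
The stretch of COL3A1 covers codons 168 to 212, that of COL1A1 codons 179 to 223 and that of COL6A2 codons 256 to 300. The longest run was 343 repeats in COL3A1 and 338 in COL1A1, both fibrillar, against 87 in COL6A2. Over the 24 collagens the longest run spanned 30 to 343 repeats, and 8.2% (COL12A1) to 85.7% (COL9A3) of codons lay in runs of at least 5. Among the 13 integrins the longest run was 2 to 4 repeats.

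Upstream sequence is shown for genes whose changes are described below: COL6A2, which fell in every line, COL5A1, which fell in each line where it could be tested, ITGAV, which rose in both ovarian lines, and the stretch between COL4A1 and COL4A2, a pair that face away from each other. They come from RefSeq on GRCh38.p14. Capitals mark 3 motifs found on either strand. The GC box was searched as GGGCGG. The CCAAT box was searched by the letters of its name. The TATA box was searched as TATAAA, and the AP-1 motif as TGANTCA.
COL6A2: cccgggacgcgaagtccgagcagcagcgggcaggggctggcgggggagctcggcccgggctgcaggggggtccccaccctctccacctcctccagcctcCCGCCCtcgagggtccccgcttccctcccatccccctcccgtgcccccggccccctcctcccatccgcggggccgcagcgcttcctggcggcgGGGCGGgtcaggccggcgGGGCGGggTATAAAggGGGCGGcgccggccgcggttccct
COL5A1: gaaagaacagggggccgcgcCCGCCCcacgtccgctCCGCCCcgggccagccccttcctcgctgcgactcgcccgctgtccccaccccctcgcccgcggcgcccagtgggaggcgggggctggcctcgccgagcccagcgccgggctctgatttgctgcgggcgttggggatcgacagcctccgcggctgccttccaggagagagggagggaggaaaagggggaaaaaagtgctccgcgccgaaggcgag
COL4A1-COL4A2: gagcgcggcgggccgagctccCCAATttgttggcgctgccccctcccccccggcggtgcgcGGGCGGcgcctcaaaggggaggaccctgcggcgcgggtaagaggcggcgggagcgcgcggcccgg
ITGAV: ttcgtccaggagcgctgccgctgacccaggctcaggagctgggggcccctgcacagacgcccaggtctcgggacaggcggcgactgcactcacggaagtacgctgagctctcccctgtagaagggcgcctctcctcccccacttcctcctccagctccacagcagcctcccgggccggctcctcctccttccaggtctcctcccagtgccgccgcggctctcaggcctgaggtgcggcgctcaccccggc
The COL6A2 stretch is chr21:46097862-46098111, plus strand, the 250 bases before the annotated start, with 4 GGGCGG matches and 1 TATAAA. The COL5A1 stretch is chr9:134641553-134641802, plus strand, with 2 GGGCGG matches. The stretch between COL4A1, which starts at position 110307157 of chromosome 13 on the minus strand, and COL4A2, which starts at 110307284 on the plus strand, is chr13:110307158-110307283 and holds 1 CCAAT and 1 GGGCGG. The ITGAV stretch is chr2:186589806-186590055, plus strand, and holds none of these letters. RefSeq windows of 300 bases, 250 before and 50 after a start, were found for 16 of the 24 collagens (21 windows) and 9 of the 13 integrins (14 windows). GGGCGG was in 81.0% of the collagen windows and 57.1% of the integrin windows, beside 45% of all 35116 windows. TATAAA was in 14.3% of both sets beside 11.5% of all windows. CCAAT was in 23.8% of the collagen and 21.4% of the integrin windows, beside 34.6% of all, and TGANTCA was in none of either set, beside 7.71% of all.

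The libraries held 23.76 M to 44.94 M recovered reads, with a median of 27.78 M. The 41 genes on the short arm of chromosome 21 took 1.41% of the reads in library A of BT549 under EPZ015666 at day 3. They took 4.57% in library B of OVCAR8 under EPZ015666 at day 5, against at most 0.831% in the other 22. Leaving out those libraries did not reverse any change of a member that had passed the test. VIM, the mesenchymal filament gene, was at a median of 120.6 RPKM in BT549, 111 in OVCAR8, 120.4 in COV362 and 47.9 in MDAMB436, while EPCAM, an epithelial surface gene, had medians of 0.000451, 0.637, 1.69 and 0.0623. The summed level of 4 mesenchymal genes, VIM among them, was 111 to 128 RPKM under DMSO and 119.9 to 136 under EPZ015666 in BT549, 117 to 129 and 108 to 138 in OVCAR8, 134 to 137 and 107 to 113 in COV362 and 44.9 to 45.8 and 52.5 to 57.4 in MDAMB436. The summed level of 4 epithelial genes (EPCAM and 3 keratins) went from 134 to 142 RPKM under DMSO to 204 to 214 under EPZ015666 in COV362, was 50.9 to 54.3 and 45.9 to 50.2 in MDAMB436, 203 to 212 and 174 to 198 in OVCAR8, and 7.66 to 9.21 and 8.94 to 10.7 in BT549. A list of 4 Müllerian or mesothelial genes, in which MSLN dominates, summed to 30.9 to 48.1 RPKM under DMSO and 5.67 to 7.05 under EPZ015666 in OVCAR8 and to 22.8 to 24 and 5.29 to 5.65 in COV362. The same list summed to 2.10 to 3.36 and 0.663 to 0.860 in BT549 and to 1.08 to 1.30 and 0.449 in both libraries of MDAMB436. The sum of 2 breast basal genes was 3.28 to 9.87 under DMSO and 1.43 to 3.0 under EPZ015666 in OVCAR8, 0.746 to 0.871 and 0.283 to 0.381 in MDAMB436, 0.461 to 0.688 and 0.584 to 0.587 in COV362, and at most 0.0601 in BT549. The part of these lists in the results was not tested. GATA3, a breast luminal gene, had a median of 4.68 RPKM in BT549 and 0.0607 in MDAMB436, and PECAM1, an endothelial gene, of at most 0.0816 in any line. Of 4 genes chosen to mark stromal fibroblasts, LUM and PDGFRB were used. LUM had a median of 0 in COV362 and MDAMB436 and 0.00912 RPKM in BT549. The sum of the 2 genes was 0.0692 to 0.0873 RPKM under DMSO and 0.0524 to 0.0799 under EPZ015666 in BT549, 1.35 to 1.95 and 1.19 to 1.25 in OVCAR8, 0.0543 to 0.0586 and 0.0199 to 0.0280 in COV362, and 0.0176 to 0.0183 and 0.0125 to 0.0196 in MDAMB436, and its part in the results was not tested.

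The most abundant collagens were not the same from line to line. In BT549 under DMSO at day 5 the most abundant collagens per kilobase of exon were COL3A1 at 284 ± 1.6 reads per kilobase of exon per 1 M reads (mean ± SD, n = 2 libraries, as in every group), COL6A2 at 204 ± 1.3, COL5A1 at 188 ± 3.7, COL6A1 at 185 ± 4.4 and COL1A2 at 151 ± 0.54. COL5A1 and COL6A1 did not differ beyond their spread. OVCAR8 led with COL1A1 at 93.9 ± 3.3 on the same scale and COL6A2 at 89.7 ± 1.1, ranges that overlapped. Both COL1A1 libraries (91.6 and 96.3) lay above both COL6A2 libraries (88.9 and 90.5), and this difference was not tested. Next came COL6A1 at 33.5 ± 0.12, COL4A2 at 32.3 ± 0.75 and COL12A1 at 26.9 ± 0.12. COV362 led with COL1A2 at 32.0 ± 1.5 and COL5A1 at 31.1 ± 1.2, within their spread of each other, then COL12A1 at 21.6 ± 1.5, COL18A1 at 21.1 ± 0.70, also within their spread, and COL6A2 at 14.6 ± 0.17. MDAMB436 led with COL6A2 at 36.8 ± 1.9, COL5A1 at 35.4 ± 0.50 and COL6A1 at 34.3 ± 1.9, which overlapped, with COL18A1 at 16 ± 0.65 and COL16A1 at 13.4 ± 0.32 below.

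The 2 chains of type I collagen, which normally wind into 1 trimer, were not found together everywhere. OVCAR8 carried COL1A1 at 49.0 and 51.5 RPKM under DMSO at day 5, while COL1A2 was listed at 0 and 0.000895 and COL3A1 at 0 and 0.00256 RPKM. COV362 carried COL1A2 at 10.1 and 9.41 RPKM and COL1A1 at 0.732 and 0.760. MDAMB436 had COL1A1 at 0.421 and 0.403 RPKM and COL1A2 listed at 0 in both libraries. BT549 carried COL1A1 (57.9 and 59.0 RPKM), COL1A2 (46.0 and 45.8) and COL3A1 (50.1 and 50.4) together. COL3A1 in the other 3 lines did not exceed 0.0105 RPKM in any library.

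ITGB1, the shared beta subunit, led the integrins in 3 lines. It was the most abundant integrin per kilobase of exon in BT549 at 281 ± 6.8, in OVCAR8 at 118 ± 3.2 and in MDAMB436 at 69.9 ± 3.1. In COV362 ITGA3 stood above it, at 116 ± 0.22 against 88.9 ± 1.7. Behind ITGB1 in BT549 came ITGA3 at 24.4 ± 0.91, ITGB5 at 18.1 ± 0.22, ITGAV at 7.50 ± 0.0088 and ITGA6 at 5.87 ± 0.44. ITGB4, the laminin-binding partner of ITGA6, came next in OVCAR8 at 37.3 ± 2.3, behind ITGA3 at 62.1 ± 0.81. COV362 had the RGD-binding ITGB5 at 37.4 ± 0.34 and ITGB8 at 16.7 ± 0.65, and its ITGA6 stood at 12.9 ± 0.47. In MDAMB436 ITGA3 at 50.4 ± 1.3 and ITGB5 at 9.13 ± 0.32 were followed by ITGA4, a subunit of leukocyte-type fibronectin receptors, at 5.73 ± 0.64 and ITGAV at 5.41 ± 0.13, which lay within their spread of each other. Of 33 members tested under DMSO at day 5, 32 differed between the 4 lines by limma's F test, where 93.8% of all genes tested did so, and COL11A2 did not pass (adjusted p = 0.0743).

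**Figure D1:**
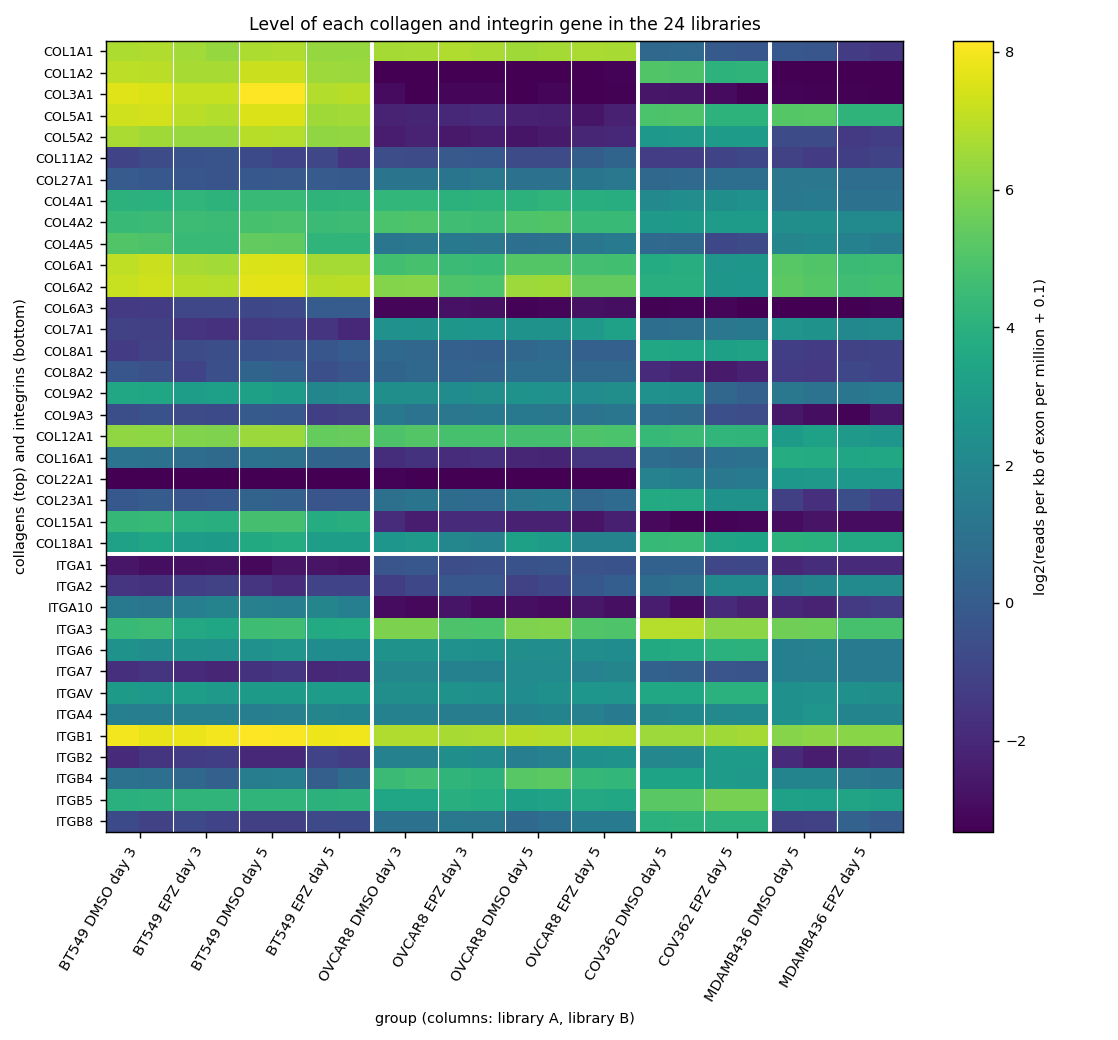
Level of the 24 collagens (top) and 13 integrins (bottom) in all 24 libraries, as log2 of reads per kilobase of exon per 1 M reads plus 0.1; each group has 2 columns, library A and library B, and EPZ stands for EPZ015666. COL3A1, COL1A2 and COL5A2 are bright in BT549 and dark in OVCAR8, and the columns of a pair look alike.

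Tests of the drug were run on log2(RPKM + 0.1) with limma for genes with a mean of at least 0.1 RPKM in the line, and adjusted over all of those genes. A log2 change on this scale understates the change of genes near 0.1 RPKM. The number of members above 0 in at least 1 library was 36 in BT549, 37 in OVCAR8, 37 in COV362 and 36 in MDAMB436, and 27, 24, 27 and 24 of them passed the filter. The filter uses the mean over both treatments. ITGB8 in MDAMB436 and COL6A3 in BT549 passed it only through the EPZ015666 group of day 5, where they were high. COL8A2 and COL9A3 in BT549 passed it only through the DMSO group of day 5. Calls of these genes at day 5 are counted below, and are not independent of the filter. Under EPZ015666 at day 5, 19 of the 27 members tested in BT549 fell and 1 rose at an adjusted p under 0.05, where 30.2% of all genes tested changed (16.6% lower and 13.6% higher). In COV362 13 of 27 fell and 6 rose, against 26.4% lower and 27.6% higher of all genes (53.9% in all). In OVCAR8 10 of 24 fell and 7 rose, against 23.0% and 20.2% (43.2% in all). In MDAMB436 10 of 24 fell and 1 rose, against 12.4% and 11.3% (23.6% in all). Each of those 11 calls was lost when any 1 of that line's 4 libraries was left out.

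At day 3, 12 of 27 members fell and none rose in BT549 by limma, against 12.7% of all genes changed (5.76% higher and 6.98% lower). Another 6 members had an unadjusted p under 0.05, a threshold at which the share of all genes was not computed. Called by limma-voom on the recovered reads instead, 20 of 35 members changed in BT549 at day 3 (4 higher) and 29 of 35 at day 5, against 25.8% and 46.4% of all genes. The same tool called 18 of 30 and 23 of 30 members in OVCAR8 at days 3 and 5, against 38.2% and 55.1%. It called 28 of 32 in COV362 against 70.7% and 21 of 31 in MDAMB436 against 48.3%. In OVCAR8 8 of 24 fell and 3 rose at day 3, against 14.1% and 11.5% (25.6% in all). Without library B of the EPZ015666 group 4 members were called in BT549 at day 3, and without library B of the DMSO group 6 were called in OVCAR8 at day 3. The median log2 change of the tested collagens at day 5 was -0.62 in BT549, -0.45 in COV362, -0.27 in MDAMB436 and -0.19 in OVCAR8. The median of the tested integrins was -0.16, 0.11, -0.10 and -0.06 in the same lines, while the median of all genes tested was 0.00, 0.01, 0.00 and 0.00. Across the 6 drug comparisons COL6A1, COL6A2, COL18A1 and ITGA3 fell in all 6. The COL18A1 call in BT549 at day 3 was lost when any 1 of 7 of the 8 libraries was left out. By limma on log2 RPKM, 21 members fell in at least 1 comparison and rose in none. Another 8 rose in at least 1 and fell in none, and COL1A1 and COL7A1 did both. The shares of all genes with these patterns, or lower in all 6, were not computed. The counts are therefore not read as particular to the members. Limma-voom called some of the 21 higher in a comparison, among them COL16A1 in COV362 (0.22, adjusted p = 0.0307), and COL12A1 and ITGA4 with values below. ITGA10, COL22A1, COL27A1 and ITGB1 were tested and called in none by limma on log2 RPKM. Limma-voom called ITGA10 higher in BT549 at day 3 (log2 change 0.49, adjusted p = 0.00401), and called COL27A1 and ITGB1 in some lines at day 5, with values given below. ITGA1 and COL23A1 were below the filter in all 6. Collagens took 1.18% and 1.19% of all reads of the 2 BT549 DMSO libraries at day 5 and 0.701% and 0.709% of the EPZ015666 libraries. The shares were 0.306% and 0.313% against 0.280% and 0.265% in OVCAR8 at day 5. They were 0.187% and 0.191% against 0.129% and 0.129% in COV362, and 0.157% and 0.155% against 0.110% and 0.110% in MDAMB436. A lower value in these bulk samples cannot tell fewer expressing cells apart from less RNA per cell.

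**Figure D2:**
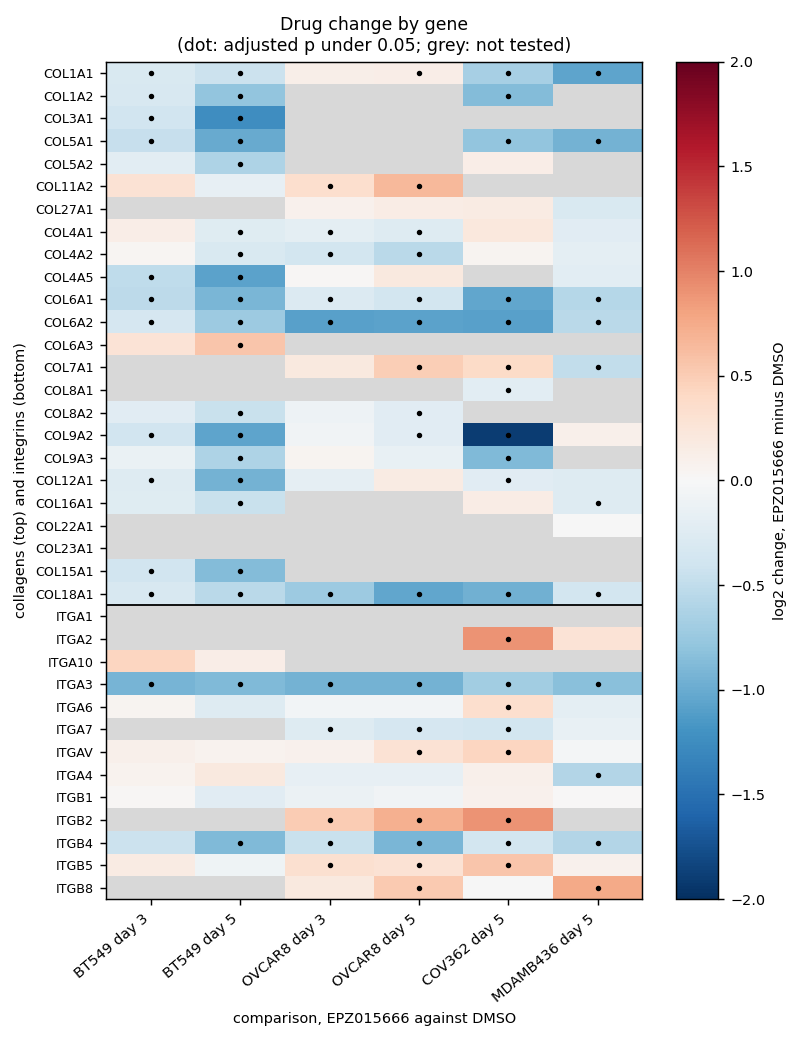
Log2 change under EPZ015666 for each collagen (top) and integrin (bottom) in the 6 drug comparisons, on the log2(RPKM + 0.1) scale; blue is lower, red is higher, a dot marks an adjusted p under 0.05 and grey marks genes below the filter. COL6A1, COL6A2, COL18A1 and ITGA3 are blue with a dot in all 6 columns, and ITGAV, ITGB5, ITGB2 and ITGB8 are red with a dot in OVCAR8 at day 5.

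Collagen VI fell in all 4 lines in the 2 chains encoded near each other on chromosome 21. COL6A2 read 13.8 and 14.0 RPKM under DMSO and 6.52 and 6.59 RPKM under EPZ015666 at day 5 in OVCAR8, a log2 change of -1.07 ± 0.036 (SE), adjusted p = 0.000108. In COV362 it read 2.29 and 2.25 RPKM under DMSO and 1.02 and 1.01 RPKM under EPZ015666, 0.447 times the DMSO mean (log2 change -1.09 ± 0.030 (SE), adjusted p = 0.0013). In BT549 the values were 31.5 and 31.8 RPKM under DMSO and 18.8 and 19.5 RPKM under EPZ015666 (log2 change -0.72 ± 0.055 (SE), adjusted p = 0.000869). The chain was most abundant there. MDAMB436 gave 5.90 and 5.49 RPKM under DMSO and 3.79 and 4.0 RPKM under EPZ015666 (log2 change -0.54 ± 0.057 (SE), adjusted p = 0.0179). The groups did not overlap in any line. At day 3 the log2 change was already -1.08 in OVCAR8 (adjusted p = 0.000333) and -0.34 in BT549 (adjusted p = 0.0171).

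COL6A1, the chain that pairs with COL6A2 in the filament, read 3.04 and 3.25 RPKM under DMSO and 1.45 and 1.5 RPKM under EPZ015666 in COV362 (log2 change -1.04 ± 0.047 (SE), adjusted p = 0.00171). In BT549 it read 41.6 and 43.0 RPKM under DMSO and 22.5 and 22.1 RPKM under EPZ015666 at day 5 (log2 change -0.92 ± 0.066 (SE), adjusted p = 0.000764). The DMSO and EPZ015666 libraries of both lines were well apart. In MDAMB436 the log2 change was -0.56 ± 0.052 (SE), adjusted p = 0.0154. In OVCAR8 it read 7.67 and 7.70 RPKM under DMSO and 5.97 and 5.94 RPKM under EPZ015666 (log2 change -0.36 ± 0.052 (SE), adjusted p = 0.00388), and against the DMSO libraries of day 3 the change was -0.04 and not called. COL6A3, the longest chain, was near 0 outside BT549. In BT549 it went the other way, from 0.101 and 0.103 to 0.195 and 0.197 RPKM at day 5, which are 229 and 223 reads under DMSO and 434 and 439 under EPZ015666 (log2 change 0.55 ± 0.076 (SE), adjusted p = 0.00485). Its group means at day 3 were 0.0633 RPKM under DMSO and 0.0977 under EPZ015666. At day 5 they were 0.102 and 0.196, and only the last brought the gene past the filter of 0.1 RPKM. COL6A3 was the 1 member called higher by limma in BT549 at day 5. Limma-voom called 6 higher there, limma with no filter 3, and limma with a pseudocount of 1 RPKM 2.

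The multiplexins, basement membrane collagens whose ends are released as endostatin-type fragments, fell wherever they were tested. COL18A1 read 0.704 and 0.614 RPKM under DMSO and 0.264 and 0.271 RPKM under EPZ015666 in OVCAR8 at day 5 (log2 change -1.04 ± 0.081 (SE), adjusted p = 0.000559). COV362 gave 1.62 and 1.70 RPKM under DMSO and 0.811 and 0.795 RPKM under EPZ015666 (log2 change -0.96 ± 0.039 (SE), adjusted p = 0.00163). Log2 changes at day 5 were -0.54 in BT549 and -0.37 in MDAMB436, with adjusted p-values of 0.00344 and 0.0219. Against DMSO of day 3 the BT549 change was -0.21 and not called (adjusted p = 0.0747). Exons of SLC19A1 on the other strand overlap 16.4% of the exon bases of COL18A1, and the strand setting of the counting is not given in the sources used here, so reads of the 2 genes there may be mixed. COL15A1 passed the filter in BT549 only and read 1.41 and 1.44 RPKM under DMSO and 0.706 and 0.764 RPKM under EPZ015666 at day 5 (log2 change -0.87 ± 0.055 (SE), adjusted p = 0.000509).

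**Figure D3:**
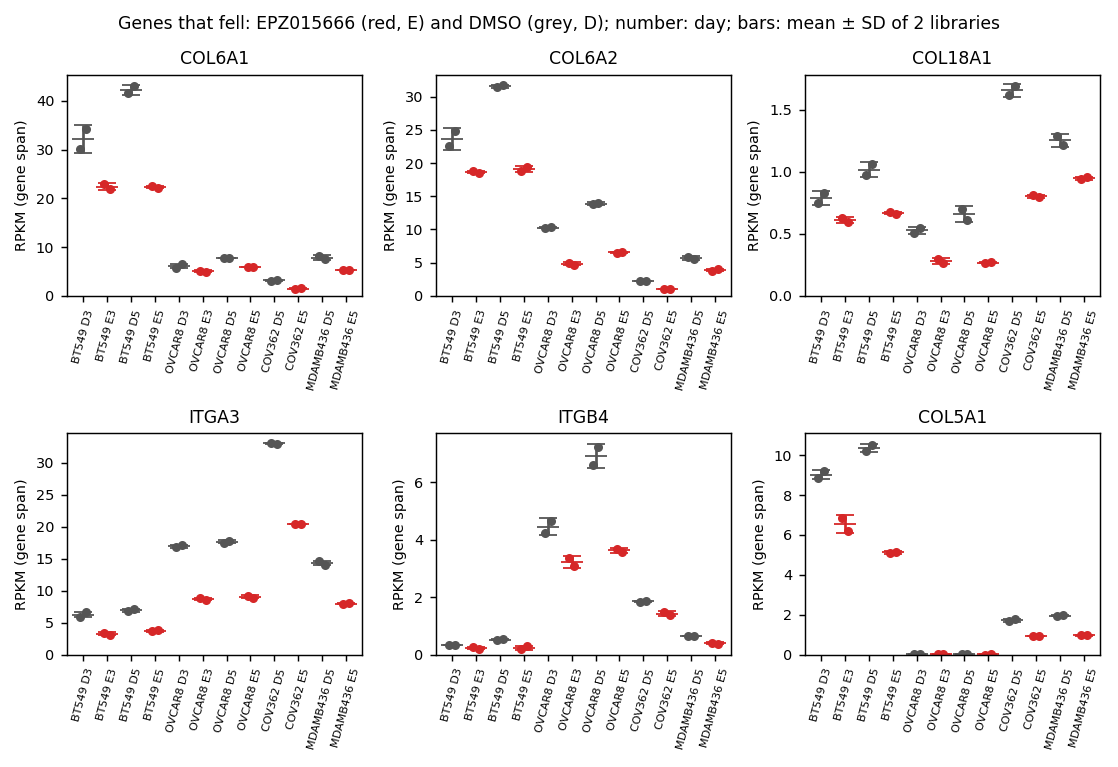
RPKM over the gene span in each library (dots) with mean ± SD of 2 libraries, DMSO in grey (D) and EPZ015666 in red (E), the number being the day; each panel has its own axis from 0. The red dots of COL6A1, COL6A2, COL18A1 and ITGA3 lie below the grey dots of the same line and day in all 6 comparisons, and COL5A1 is near 0 in OVCAR8.

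Fibrillar collagens fell in BT549, where 5 of the 6 tested were lower at day 5, in COV362 (3 of 5) and in MDAMB436 (2 of 3), whereas in OVCAR8 2 of the 3 tested rose. The shares of all genes lower were 16.6%, 26.4% and 12.4% in the first 3 lines, and 20.2% were higher in OVCAR8. COL3A1, the chain of type III fibres, read 50.1 and 50.4 RPKM under DMSO and 20.6 and 21.6 RPKM under EPZ015666, 0.420 times the DMSO mean, and its log2 change of -1.25 ± 0.049 (SE), adjusted p = 0.000193, was the largest of any member there. Every EPZ015666 library of COL3A1 lay below the DMSO libraries. COL5A1, whose chain regulates the diameter of type I fibres, read 10.2 and 10.5 RPKM under DMSO and 5.08 and 5.16 RPKM under EPZ015666 in BT549 (log2 change -1.0 ± 0.056 (SE), adjusted p = 0.000381). In MDAMB436 it read 1.93 and 1.97 RPKM under DMSO and 0.957 and 0.970 RPKM under EPZ015666 (log2 change -0.95 ± 0.037 (SE), adjusted p = 0.0137). In COV362 it read 1.67 and 1.76 RPKM under DMSO and 0.948 and 0.942 RPKM under EPZ015666 (log2 change -0.80 ± 0.041 (SE), adjusted p = 0.00188). The groups did not overlap in these lines, and the 3 changes spanned 0.21 on the log2 scale. COL5A2, its partner chain, fell in BT549 (log2 change -0.62 ± 0.054 (SE), adjusted p = 0.00127) and gave 0.13 in COV362 (adjusted p = 0.113). Limma-voom called COL5A2 higher in COV362 (0.16, adjusted p = 0.00367).

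COL1A2 fell in both lines where it was tested. In COV362 it went from 10.1 and 9.41 to 5.26 and 5.32 RPKM (log2 change -0.87 ± 0.042 (SE), adjusted p = 0.00177) and in BT549 from 46.0 and 45.8 to 26.7 and 26.6 RPKM at day 5 (log2 change -0.78 ± 0.036 (SE), adjusted p = 0.000222). COL1A1 fell in MDAMB436 from 0.421 and 0.403 to 0.160 and 0.133 RPKM (log2 change -1.06 ± 0.086 (SE), adjusted p = 0.0146). It also fell in COV362 (log2 change -0.67, adjusted p = 0.00399) and in BT549 (log2 change -0.43, adjusted p = 0.00871). In OVCAR8, where it was the most abundant collagen, it read 49.0 and 51.5 RPKM under DMSO and 56.1 and 54.6 RPKM under EPZ015666 at day 5. This small rise (log2 change 0.14 ± 0.042 (SE), adjusted p = 0.0431) was no longer called when any 1 of 6 of the 8 OVCAR8 libraries was left out, and against DMSO of day 3 it was 0.075 (adjusted p = 0.228). Levels of COL11A2, a minor fibrillar chain, were near 0.1 RPKM. It rose in OVCAR8 from 0.122 and 0.117 to 0.217 and 0.269 RPKM at day 5 (log2 change 0.64 ± 0.086 (SE), adjusted p = 0.00302). COL27A1 was called in no line by limma on log2 RPKM. Limma-voom on the recovered reads called it lower in MDAMB436 (log2 change -0.45, adjusted p = 7.33e-05) and higher in COV362 (0.26, adjusted p = 0.00309) and in OVCAR8 at day 5 (0.24, adjusted p = 0.00503).

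Of the 3 type IV chains tested, all fell in BT549 at day 5 and COL4A1 and COL4A2 fell in OVCAR8. COL4A1 and COL4A2, the ubiquitous basement membrane chains, start 127 bases apart and are read in opposite directions, so that the RefSeq windows around their starts share 226 of 300 bases. Both fell in OVCAR8 at day 5. COL4A1 went from 1.56 and 1.67 to 1.36 and 1.33 RPKM (log2 change -0.25 ± 0.038 (SE), adjusted p = 0.0048). COL4A2 went from 2.96 and 3.05 to 2.06 and 1.99 RPKM (log2 change -0.55 ± 0.043 (SE), adjusted p = 0.000571). In BT549 at day 5 the log2 changes were -0.24 (adjusted p = 0.0208) and -0.31 (adjusted p = 0.00778). Leaving out any 1 of 4 of the 8 BT549 libraries ended the call of COL4A1. Against the DMSO libraries of day 3 they were 0.15 and 0.042 and were not called. In COV362 they were 0.21 and 0.05 and in MDAMB436 -0.23 and -0.19, none past the test by limma. Limma-voom called COL4A1 higher in COV362 (0.23, adjusted p = 0.00183), but not COL4A2 (adjusted p = 0.17). It called both lower in MDAMB436 (-0.32, adjusted p = 0.00117, and -0.21, adjusted p = 0.00155). COL4A5, an X-linked chain of specialised basement membranes, fell in BT549 from 1.92 and 1.87 to 0.847 and 0.845 RPKM (log2 change -1.08 ± 0.047 (SE), adjusted p = 0.000217). In OVCAR8 at day 5 it gave 0.19, which limma did not call (adjusted p = 0.103), whereas limma-voom called it higher (0.40, adjusted p = 6.6e-05).

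COL9A2, a fibril-associated chain best known from cartilage, showed the largest change of any member, in COV362, where it read 1.35 and 1.31 RPKM under DMSO and 0.317 and 0.253 RPKM under EPZ015666 (0.214 times the DMSO mean, log2 change -1.90 ± 0.098 (SE), adjusted p = 0.00188). In BT549 it read 2.25 and 1.96 RPKM under DMSO and 0.924 and 0.995 RPKM under EPZ015666 (log2 change -1.05 ± 0.076 (SE), adjusted p = 0.000767). In OVCAR8 the log2 change was -0.23 (adjusted p = 0.0317) and in MDAMB436 0.09 (adjusted p = 0.527). The OVCAR8 call was lost without any 1 of 5 of the 8 libraries, and was -0.087 and not called against DMSO of day 3. The change thus ran from a fall to no call across the lines. COL9A3, another chain of type IX, fell in COV362 (log2 change -0.88, adjusted p = 0.00307) and in BT549 (log2 change -0.62, adjusted p = 0.00441). COL12A1, which bridges fibres, fell in BT549 from 8.95 and 8.89 to 4.50 and 4.63 RPKM (log2 change -0.95 ± 0.040 (SE), adjusted p = 0.000215). It gave -0.23 in COV362 (adjusted p = 0.0468, lost without any 1 of the 4 libraries). In OVCAR8 at day 5 COL12A1 gave 0.17, which limma did not call (adjusted p = 0.057), whereas limma-voom called it higher (0.20, adjusted p = 0.000955). In MDAMB436 only limma-voom called it lower (-0.26, adjusted p = 0.0125). COL16A1 fell in BT549 (log2 change -0.45, adjusted p = 0.00593) and in MDAMB436, where it went from 2.43 and 2.35 to 1.95 and 2.03 RPKM (log2 change -0.25, adjusted p = 0.0324). Of the short-chain network collagens, COL8A1 fell in COV362 (log2 change -0.22, adjusted p = 0.0193), a call lost whichever of the 4 libraries was left out. COL8A2 fell in BT549 (log2 change -0.45, adjusted p = 0.043) and in OVCAR8 (log2 change -0.23, adjusted p = 0.0372) at day 5. Each of these COL8A2 calls was lost when any 1 of 6 of the 8 libraries of the line was left out. Against DMSO of day 3 the changes were -0.020 and 0.035, and neither was called. In BT549 both COL8A2 and COL9A3 passed the filter only through the DMSO libraries of day 5, the higher side of their changes.

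COL7A1, the anchoring fibril collagen that ties epithelial basement membrane to the tissue beneath, rose in the ovarian lines and fell in MDAMB436. In COV362 it went from 0.585 and 0.624 to 0.790 and 0.843 RPKM (log2 change 0.38 ± 0.055 (SE), adjusted p = 0.0112). In OVCAR8 it went at day 5 from 2.01 and 2.10 to 2.60 and 3.31 RPKM (log2 change 0.50 ± 0.11 (SE), adjusted p = 0.0165). In MDAMB436 it went from 2.21 and 2.02 to 1.42 and 1.53 RPKM (log2 change -0.49 ± 0.067 (SE), adjusted p = 0.024). The EPZ015666 libraries lay above both DMSO libraries in the ovarian lines and below them in MDAMB436. The gene was below the filter in BT549, and the difference between lines was therefore not tested for it.

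Among the laminin-binding integrins, ITGA3 fell in every comparison. It read 33.1 and 33.0 RPKM under DMSO and 20.4 and 20.5 RPKM under EPZ015666 in COV362 (log2 change -0.69 ± 0.019 (SE), adjusted p = 0.0013). In OVCAR8 it read 17.5 and 17.8 RPKM under DMSO and 9.22 and 8.92 RPKM under EPZ015666 at day 5 (log2 change -0.95 ± 0.031 (SE), adjusted p = 9.63e-05). The MDAMB436 values were 14.6 and 14.1 RPKM under DMSO and 7.94 and 7.99 RPKM under EPZ015666 (log2 change -0.84 ± 0.035 (SE), adjusted p = 0.0137). The BT549 values were 6.76 and 7.12 RPKM under DMSO and 3.61 and 3.81 RPKM under EPZ015666 at day 5 (log2 change -0.89 ± 0.071 (SE), adjusted p = 0.00101). No EPZ015666 library reached a DMSO library of its line. At day 3 the log2 change was -0.95 in OVCAR8 and -0.92 in BT549, the largest of any member in BT549 at that day. The change at day 5 minus that at day 3 was 0.04 in BT549 and -0.00 in OVCAR8, neither called (adjusted p = 0.876 and 0.99).

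ITGB4, the hemidesmosome subunit, fell in OVCAR8 from 6.61 and 7.22 to 3.69 and 3.56 RPKM at day 5 (log2 change -0.91 ± 0.072 (SE), adjusted p = 0.000565). In BT549, at lower levels, it fell from 0.512 and 0.532 to 0.191 and 0.293 (log2 change -0.88 ± 0.16 (SE), adjusted p = 0.0104), and against DMSO of day 3 the change was -0.35 and not called (adjusted p = 0.166). It also fell in MDAMB436 (log2 change -0.59, adjusted p = 0.0166) and in COV362 (log2 change -0.36, adjusted p = 0.00966). In COV362 the call of ITGB4 was lost without library A or without library B of DMSO. Those of ITGA6 and COL7A1 there were lost without library A of DMSO or without library B of EPZ015666. ITGA6, the alpha subunit it pairs with, differed from it: ITGA6 rose in COV362 from 1.04 and 1.09 to 1.34 and 1.39 RPKM (log2 change 0.33 ± 0.043 (SE), adjusted p = 0.0091) and was called in no other comparison by limma. Limma-voom also called it lower in BT549 at day 5 (log2 change -0.24, adjusted p = 0.0306) and in MDAMB436 (-0.24, adjusted p = 0.0238). ITGA7, a laminin receptor best known from muscle, fell in OVCAR8 from 0.914 and 0.917 to 0.680 and 0.731 RPKM at day 5 (log2 change -0.34 ± 0.041 (SE), adjusted p = 0.00219) and in COV362 (log2 change -0.36, adjusted p = 0.0199), the last lost whichever of the 4 libraries was left out. ITGB1 had log2 changes at day 5 of -0.23, -0.06, 0.09 and 0.00 in BT549, OVCAR8, COV362 and MDAMB436, and adjusted p-values of 0.053, 0.187, 0.0857 and 0.976. Limma-voom called it lower in BT549 (log2 change -0.15, adjusted p = 0.0371) and higher in COV362 (0.084, adjusted p = 0.00848).

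Integrin subunits that rose at day 5 numbered 5 of 11 tested in COV362, 4 of 10 in OVCAR8 and 1 of 10 in MDAMB436, where 27.6%, 20.2% and 11.3% of all genes rose. The 1 in MDAMB436, ITGB8, passed the filter only through its EPZ015666 libraries. ITGB5 read 1.72 and 1.74 RPKM under DMSO and 2.61 and 2.59 RPKM under EPZ015666 in COV362 (log2 change 0.56 ± 0.027 (SE), adjusted p = 0.00177). In OVCAR8 it read 0.416 and 0.452 RPKM under DMSO and 0.552 and 0.550 RPKM under EPZ015666 at day 5 (log2 change 0.29 ± 0.049 (SE), adjusted p = 0.00706). ITGAV, its alpha partner, rose in COV362 from 1.05 and 1.05 to 1.46 and 1.44 RPKM (log2 change 0.43 ± 0.030 (SE), adjusted p = 0.00271). It rose in OVCAR8 from 0.428 and 0.486 to 0.591 and 0.567 (log2 change 0.29 ± 0.062 (SE), adjusted p = 0.0152). In both ovarian lines all EPZ015666 values of these partners lay above the DMSO values. Against DMSO of day 3 the ITGB5 change in OVCAR8 was 0.12 and not called (adjusted p = 0.116). In the breast lines neither passed the test, with day 5 log2 changes of 0.08 and -0.04 for ITGAV and -0.09 and 0.09 for ITGB5 in BT549 and MDAMB436.

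ITGB2, the beta subunit of leukocyte integrins, was measured above the filter in the ovarian lines and rose in both. It read 0.573 and 0.587 RPKM under DMSO and 1.17 and 1.17 RPKM under EPZ015666 in COV362 (2.02 times the DMSO mean, log2 change 0.90 ± 0.035 (SE), adjusted p = 0.0016). In OVCAR8 it read 0.427 and 0.495 RPKM under DMSO and 0.799 and 0.839 RPKM under EPZ015666 at day 5 (log2 change 0.71 ± 0.076 (SE), adjusted p = 0.00142). Exons of ITGB2-AS1 on the other strand overlap 4.46% of its exon bases. CD74, the one leukocyte marker used, was at 7.21 to 7.38 RPKM under DMSO and 4.13 to 4.42 under EPZ015666 in COV362, and at 0.487 to 0.662 and 0.450 to 0.773 in OVCAR8. Whether the values of ITGB2 and CD74 are related was not tested. ITGA2, a collagen receptor subunit, rose in COV362 from 0.119 and 0.134 to 0.322 and 0.322 RPKM (log2 change 0.90 ± 0.067 (SE), adjusted p = 0.00306). Its change in MDAMB436, from 0.226 and 0.264 to 0.324 and 0.308 RPKM, did not pass by limma (log2 change 0.27 ± 0.085 (SE), adjusted p = 0.098). Limma-voom called ITGA2 higher there (0.40, adjusted p = 0.000621). ITGB8, the activator of latent TGF-beta, rose in MDAMB436 from 0.0618 and 0.0684 to 0.199 and 0.160 RPKM (log2 change 0.76 ± 0.12 (SE), adjusted p = 0.0283). Its DMSO mean there, 0.0651 RPKM, was below the filter, which it passed only through the EPZ015666 libraries. In OVCAR8 it rose at day 5 from 0.255 and 0.304 to 0.447 and 0.437 (log2 change 0.52 ± 0.069 (SE), adjusted p = 0.00296). COV362, with the highest level, gave 2.89 and 3.06 RPKM under DMSO and 2.95 and 2.98 RPKM under EPZ015666, overlapping groups with a log2 change of 0.00 (adjusted p = 0.947). ITGA4, a fibronectin and VCAM1 receptor subunit, fell in MDAMB436 from 0.528 and 0.619 to 0.347 and 0.347 RPKM (log2 change -0.59 ± 0.086 (SE), adjusted p = 0.0262). In BT549 at day 5 ITGA4 gave 0.20, which limma did not call (adjusted p = 0.0534), whereas limma-voom called it higher (0.33, adjusted p = 0.00312). ITGA10, another collagen receptor, was tested in BT549 and gave 0.13 at day 5 (adjusted p = 0.401).

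**Figure D4:**
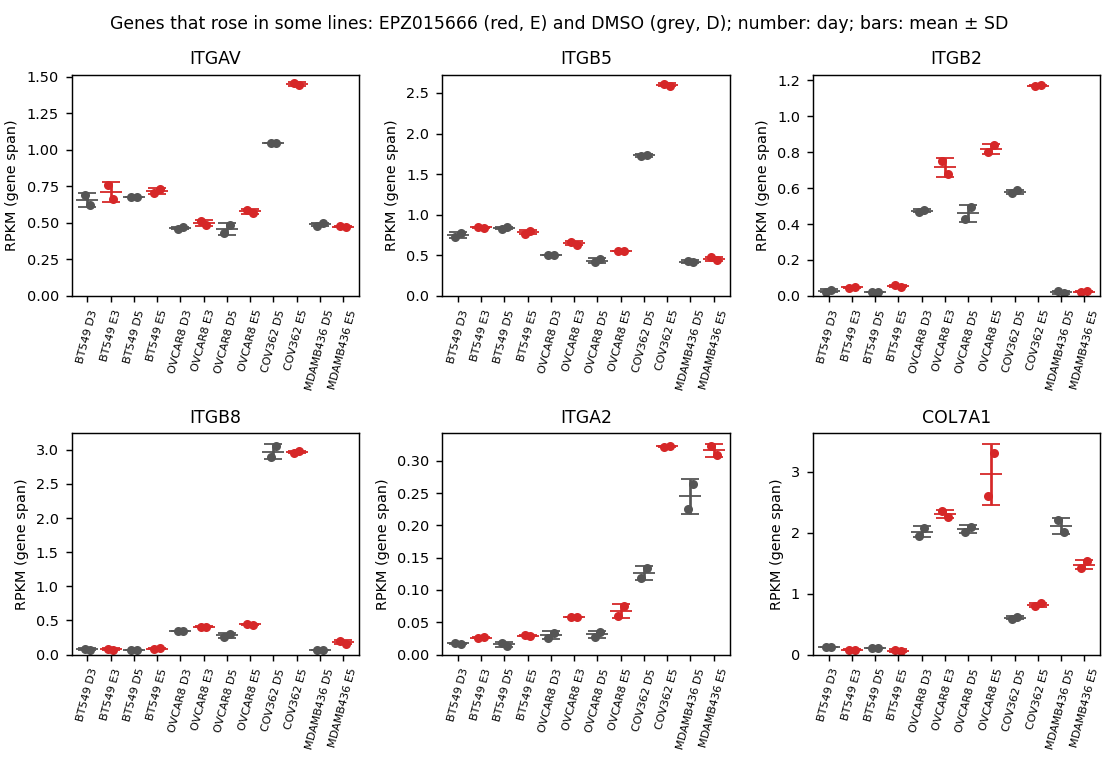
RPKM over the gene span in each library (dots) with mean ± SD of 2 libraries, DMSO in grey (D) and EPZ015666 in red (E), the number being the day; each panel has its own axis from 0. ITGAV, ITGB5, ITGB2 and ITGA2 stand highest under EPZ015666 in COV362 for the first 3 and in COV362 and MDAMB436 for ITGA2, and COL7A1 is higher in OVCAR8 and COV362 and lower in MDAMB436.

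Averaged over the 4 lines at day 5 in a fit of 16 libraries, 15 members were measured above the filter in every line. Of these 12 fell and 2 rose, against 67.3% of all genes changed and 32.7% lower. The largest mean falls were COL6A2 at -0.85 ± 0.019 (SE), adjusted p = 4.75e-10, ITGA3 at -0.84 ± 0.017 (SE), adjusted p = 4.1e-10, COL9A2 at -0.77, COL18A1 at -0.73, COL6A1 at -0.72 and ITGB4 at -0.69, followed by COL1A1 at -0.50 and COL12A1 at -0.31. ITGB5 rose by 0.21 ± 0.022 (SE) and ITGAV by 0.19 ± 0.023 (SE). The SE and p-values of this fit come from the scatter between libraries A and B within groups. They do not measure the spread between the 4 lines, over which COL6A2 ranged from -0.54 in MDAMB436 to -1.09 in COV362. COL4A2 (-0.25), COL4A1 (-0.13), ITGA4 (-0.11) and ITGB1 (-0.05, lost with limma-voom) were also called lower, and ITGA6 (-0.04) was not called. With 1 library left out, the ITGA4 call was lost in 6 of 16 fits and that of ITGB1 in 8. These 4 means are not falls shared by all lines. ITGA4 gave 0.20 in BT549, 0.11 in COV362, -0.17 in OVCAR8 and -0.59 in MDAMB436, the only line where it was called. COL4A1 gave 0.21, COL4A2 0.05 and ITGB1 0.09 in COV362.

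The size of the day 5 change differed between lines for all 15 by limma's F test, as it did for 68.0% of all genes tested. COL1A1 ranged from -1.06 in MDAMB436 to 0.14 in OVCAR8 (adjusted p = 8.39e-06), and COL9A2 from -1.90 in COV362 to 0.09 in MDAMB436 (adjusted p = 1.03e-05). COL12A1 ranged from -0.95 in BT549 to 0.17 in OVCAR8 (adjusted p = 0.000169). ITGA3 had the narrowest range of the 15, -0.95 to -0.69, and it too differed (adjusted p = 0.00482).

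The BT549 collagens also differed between the days of vehicle culture. In DMSO alone 11 collagens rose and COL9A2 fell between day 3 and day 5 of 27 members tested, against 8.77% of all genes changed (5.62% higher). COL3A1 went from 34.5 and 32.1 to 50.1 and 50.4 RPKM (log2 change 0.59 ± 0.049 (SE), adjusted p = 0.00802). COL6A2 went from 22.5 and 24.9 to 31.5 and 31.8 (log2 change 0.42 ± 0.055 (SE), adjusted p = 0.0186). COL6A1 went from 30.1 and 34.2 to 41.6 and 43.0 (log2 change 0.40 ± 0.066 (SE), adjusted p = 0.0268). Under EPZ015666 COL3A1 read 25.4 and 25.3 at day 3 and 20.6 and 21.6 at day 5, and COL6A2 read 18.8 and 18.5 at day 3 and 18.8 and 19.5 at day 5. The drug change at day 5 and the time change in DMSO share the DMSO libraries of day 5, so their values are given side by side only. Of the DMSO time comparison no member was called when either of those 2 libraries was left out (12 with all), 5 without library A and 7 without library B of DMSO at day 3, and 3 without either EPZ015666 library of day 5.

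Tested as an interaction, the drug change in BT549 was larger at day 5 than at day 3 for 4 members, against 0.819% of all genes. COL3A1 went from -0.39 to -1.25 (difference -0.86 ± 0.069 (SE), adjusted p = 0.0154). COL12A1 went from -0.26 to -0.95 (difference -0.69 ± 0.057 (SE), adjusted p = 0.0154). COL4A5 went from -0.50 to -1.08 (difference -0.57 ± 0.067 (SE), adjusted p = 0.0337). COL1A2 went from -0.33 to -0.78 (difference -0.46 ± 0.051 (SE), adjusted p = 0.0299). Another 13 members had an unadjusted p under 0.05 without passing adjustment, and the share of all genes at that threshold was not computed. Leaving out library A or B of the DMSO group at day 5, of the EPZ015666 group at day 3 or of the EPZ015666 group at day 5 left no member called, and leaving out library A of DMSO at day 3 left 2. In OVCAR8 no member differed between days in its drug change by limma (5 had an unadjusted p under 0.05, and limma-voom on the recovered reads called 6), against 0.937% of all genes (0.391% higher). In OVCAR8 under DMSO 5 members rose and 3 fell from day 3 to day 5, against 23.4% of all genes. ITGB4 went from 4.24 and 4.65 to 6.61 and 7.22 RPKM (log2 change 0.63 ± 0.072 (SE), adjusted p = 0.00622). COL6A2 went from 10.2 and 10.3 to 13.8 and 14.0 (log2 change 0.44 ± 0.036 (SE), adjusted p = 0.00365). Leaving out any 1 of the 8 OVCAR8 libraries gave 2 to 5 such calls.

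**Figure D5:**
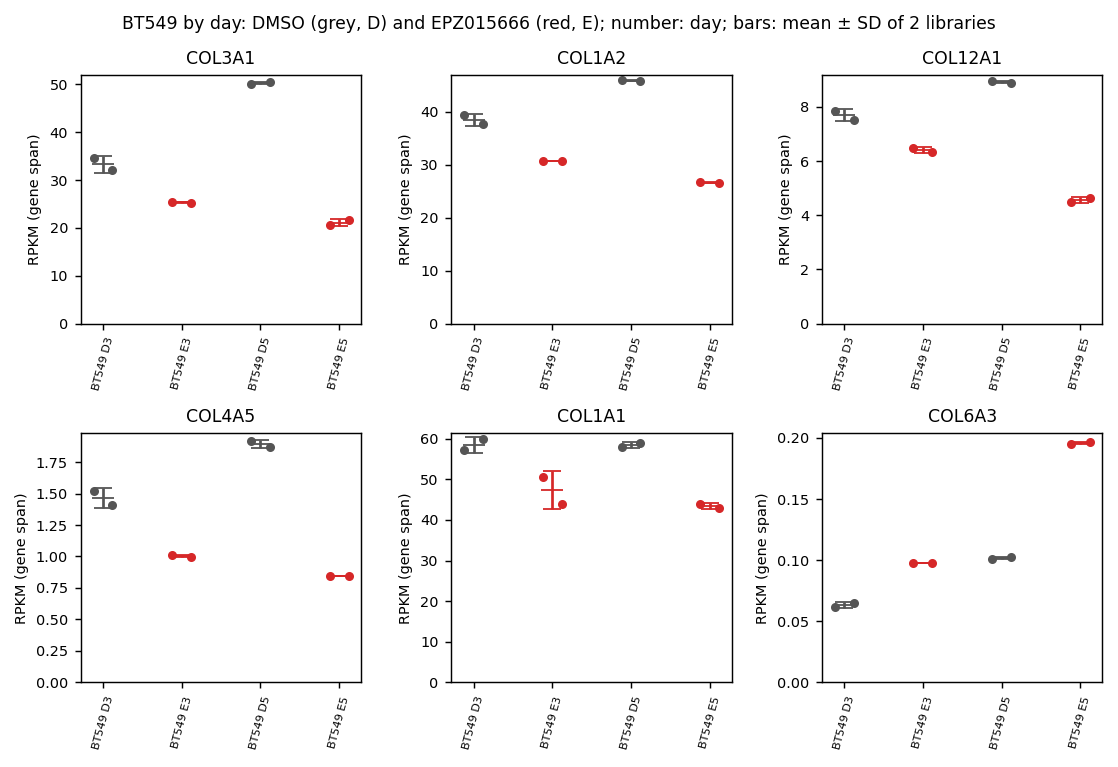
RPKM over the gene span in the 8 BT549 libraries for 6 collagens, with mean ± SD of 2 libraries, DMSO in grey (D) and EPZ015666 in red (E), the number being the day; each axis starts at 0. COL3A1 rises from day 3 to day 5 under DMSO and is lower at day 5 under EPZ015666, while COL6A3 is higher under EPZ015666.

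The machinery that makes collagen was examined with lists of other genes. Their counts at day 5 stand beside the shares of all genes called, 13.6% higher and 16.6% lower in BT549, 20.2% and 23.0% in OVCAR8, 27.6% and 26.4% in COV362 and 11.3% and 12.4% in MDAMB436. Of 16 tested enzymes and chaperones that hydroxylate, glycosylate and fold procollagen, 12 fell in BT549 at day 5 and the other 4 did not pass, 11 of 15 fell and 1 rose in OVCAR8, 6 of 14 fell and 5 rose in COV362, and 4 of 13 fell and 1 rose in MDAMB436. The median log2 change of the list was -0.42, -0.30, 0.02 and -0.19 in these lines. FKBP10, a collagen chaperone, fell in all 4, with 13 and 13.2 RPKM under DMSO and 6.49 and 6.89 RPKM under EPZ015666 in COV362 (log2 change -0.96, adjusted p = 0.00163), and with log2 changes of -0.97 in OVCAR8, -0.91 in BT549 and -0.74 in MDAMB436. PLOD3, a lysyl hydroxylase, read 46.7 and 46.4 RPKM under DMSO and 22.2 and 22.3 RPKM under EPZ015666 in BT549 (log2 change -1.06, adjusted p = 0.000168). PLOD1, of the same family, read 51.3 and 51.3 RPKM under DMSO and 25.2 and 26.3 RPKM under EPZ015666 there (log2 change -0.99, adjusted p = 0.000193). P4HB, a subunit of prolyl 4-hydroxylase, fell in BT549 (log2 change -0.60, adjusted p = 0.000789).

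Of 10 genes of procollagen export, 1 rose and 1 fell in BT549, 1 rose and 4 fell in OVCAR8, and 3 rose and 2 fell in COV362 at day 5. The counts in BT549 and COV362 were within 1 gene of those shares in each direction. The median log2 change was -0.02, -0.05 and 0.13 in these lines and 0.01 in MDAMB436, where the changes did not pass the test. Of the cleavage and cross-linking genes 3 of 8 fell in BT549, 5 of 9 fell and 2 rose in OVCAR8, 3 of 9 fell and 2 rose in COV362 and 3 of 7 fell in MDAMB436. PCOLCE, the enhancer of procollagen C-proteinase, fell in COV362 (6.16 and 5.81 RPKM under DMSO and 2.83 and 2.86 RPKM under EPZ015666, log2 change -1.05, adjusted p = 0.00156), MDAMB436 (log2 change -0.77, adjusted p = 0.0137) and OVCAR8 (log2 change -0.51, adjusted p = 0.000999). SPARC, a collagen-binding matrix protein, fell in BT549 (86.1 and 82.7 RPKM under DMSO and 54.7 and 56.6 RPKM under EPZ015666, log2 change -0.60, adjusted p = 0.000764). LOX, a lysyl oxidase, rose in COV362 (log2 change 1.10, adjusted p = 0.00221) as LOXL1 fell (log2 change -0.79, adjusted p = 0.00168).

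Among genes of collagen breakdown, 2 rose and 3 fell of 9 in BT549, 1 rose and 3 fell of 6 in OVCAR8, 5 rose and 1 fell of 7 in COV362 and 5 rose and 1 fell of 8 in MDAMB436. MRC2, the receptor that takes up cleaved collagen, fell in each line, in OVCAR8 with 8.13 and 8.45 RPKM under DMSO and 4.84 and 5.00 RPKM under EPZ015666 (log2 change -0.74, adjusted p = 0.000231). CTSK, a collagen-cleaving cathepsin, rose in each, in MDAMB436 with 0.269 and 0.283 RPKM under DMSO and 0.702 and 0.643 RPKM under EPZ015666 (log2 change 1.04, adjusted p = 0.0137). MMP9, a gelatinase, rose in BT549 from 0.428 and 0.462 to 3.04 and 2.56 RPKM (log2 change 2.41, adjusted p = 0.000668).

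Non-integrin collagen receptors gave 3 down of 6 in BT549, 2 up and 2 down of 5 in OVCAR8, 4 up and 2 down of 6 in COV362 and 2 up and 1 down of 5 in MDAMB436, each at day 5. DDR1, a collagen-binding tyrosine kinase, fell in all 4 lines, in COV362 from 4.75 and 4.94 RPKM under DMSO to 3.20 and 3.02 RPKM under EPZ015666 (log2 change -0.62, adjusted p = 0.00274). CD44, a hyaluronan receptor that also binds collagen, rose in COV362 (log2 change 0.53, adjusted p = 0.00189), MDAMB436 and OVCAR8 and gave 0.06 in BT549 (adjusted p = 0.365). Non-collagen integrin ligands gave 1 up and 6 down of 11 in BT549, 3 up and 5 down of 9 in OVCAR8, 8 up and 1 down of 13 in COV362 and 2 up and 1 down of 10 in MDAMB436. THBS1, CYR61 and CTGF, matrix-associated ligands, rose in COV362, CYR61 with 34.5 and 34.4 RPKM under DMSO and 91.9 and 93.0 RPKM under EPZ015666 (log2 change 1.42, adjusted p = 0.00129). POSTN, periostin, fell in BT549 (log2 change -1.52, adjusted p = 0.00105) and FN1, fibronectin, fell there from 4.90 and 4.97 to 3.40 and 3.29 RPKM (log2 change -0.55, adjusted p = 0.000882).

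Inside the cell, adhesion complex genes gave 3 up and 5 down of 25 in BT549, 6 up and 7 down of 27 in OVCAR8, 13 up and 5 down of 24 in COV362 and 1 up and 3 down of 25 in MDAMB436. In BT549, OVCAR8 and MDAMB436 these counts were within 2 genes of the shares of all genes in each direction. FLNA, the actin cross-linker filamin A, fell in MDAMB436 (331 and 325 RPKM under DMSO and 222 and 224 RPKM under EPZ015666, log2 change -0.56, adjusted p = 0.0137), BT549 (log2 change -0.74, adjusted p = 0.00313) and OVCAR8 (log2 change -0.56, adjusted p = 0.00104). TNS2, a tensin, fell in COV362 (log2 change -1.46, adjusted p = 0.0013) and OVCAR8 (log2 change -0.48, adjusted p = 0.00225). In COV362 the focal adhesion protein ZYX rose (log2 change 0.80, adjusted p = 0.0013). Membrane partners of integrins gave 3 up and 6 down of 10 in BT549, 3 up and 6 down in OVCAR8, 7 up and 1 down in COV362 and 3 up and 1 down in MDAMB436. CD151, the tetraspanin that binds ITGA3 with ITGB1, fell in OVCAR8 (16.3 and 16 RPKM under DMSO and 11.0 and 10.3 RPKM under EPZ015666, log2 change -0.59, adjusted p = 0.000289), BT549 (log2 change -0.46, adjusted p = 0.00395) and MDAMB436 (log2 change -0.30, adjusted p = 0.02), and SLC3A2, which carries integrin signals with an amino acid transporter, rose in COV362 (log2 change 1.03, adjusted p = 0.00129). The counts of these 8 lists were not recomputed with libraries left out.

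The members ITGB2, COL18A1, COL6A1 and COL6A2 lie within 1.25 Mb of chromosome 21, positions 44885953 to 46132849 of GRCh38, and changed in both directions. ITGB2 (44885953 to 44931989, minus strand) rose in both ovarian lines, while COL18A1 (45405137 to 45513720), COL6A1 (45981737 to 46005050) and COL6A2 (46098097 to 46132849), all on the plus strand, fell. COL6A1 and COL6A2 are 93.0 kb apart. Of the other genes in this interval, 1 of 11 tested fell in BT549 at day 5 and none rose, 9 of 14 fell and 1 rose in OVCAR8, 3 of 9 fell and 4 rose in COV362, and 1 of 10 fell in MDAMB436. Of all genes 16.6%, 23.0%, 26.4% and 12.4% fell in these lines, and 27.6% rose in COV362. ITGA3 (chromosome 17, 50055968 to 50090481) and COL1A1 (50183289 to 50201632) are 92.8 kb apart and differed in direction in OVCAR8, where ITGA3 fell and COL1A1 rose slightly. COL3A1 (chromosome 2, 188974320 to 189012746) and COL5A2 (189031896 to 189225312) are 19.1 kb apart and both fell in BT549 at day 5.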

How the data were processed

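Stranded poly(A) RNA sequencing was available for 24 libraries of 4 cell lines. The authors deposited 1 table of RPKM values, counted per gene on GRCh38 with featureCounts, per the submitters' processing notes. No aligner or annotation is named in those notes. Multiplied by the whole length of the gene in GENCODE 29 the values gave whole reads (within 0.02 read, 100% of values under 1000 reads, for 16559 symbols with a length; 32 had none), so the RPKM are per kilobase of gene span. The recovered reads, 23.76 M to 44.94 M per library, set the precision of low genes. They were 93.89% to 106.69% of the total used in the scaling, and above 100% in the BT549 libraries. The cause was not tested. Levels were also rescaled to exon length, and overlap with other genes was examined over exons only. An intron-rich gene has a low RPKM on the span scale whatever its abundance.

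Changes were computed on log2(RPKM + 0.1) for genes with a mean of at least 0.1 RPKM over the libraries fitted (in every line for the fits over lines) with limma 3.58.1 in R 4.3.3 (lmFit, moderated by eBayes with trend), adjusted by the Benjamini-Hochberg method over all genes tested and called at an adjusted p under 0.05. Each line was fitted alone (8 libraries and 4 residual degrees of freedom for BT549 and OVCAR8, 4 and 2 for COV362 and MDAMB436), and the 16 day 5 libraries together for the common effect and the F tests between lines (8 residual degrees of freedom). Tables were handled with pandas 2.3.3 in Python 3.11.15. The fits were tested on simulated data with a set spread of 0.1 log2, which was not taken from these libraries. Only 200 genes were changed there, fewer than were called at day 5 in any line here. The Benjamini-Hochberg cutoff depends on that number and was stricter in the simulation. The shares that follow hold for that setting and are not detection rates of the comparisons above. There a 1.5-fold change at day 5 was called with the right sign for 32% of changed genes in BT549. The share was 25.3% in OVCAR8, 1% in COV362 and 2% in MDAMB436. For a 2-fold change the shares were 86.9%, 82%, 56% and 51% in the same lines. A member that was not called may still have changed. No 2 libraries were identical, and pairs differed by more than counting error.

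The members and the 8 pathway lists (129 genes) were chosen with earlier results of these data known. Values are given for COL3A1 and COL6A2, for up to 6 collagens and 6 integrins each way per drug comparison, up to 8 members in the common effect and in the tests between lines and days, the 5 highest collagens and integrins per line, and up to 4 genes per pathway list with the smallest adjusted p; COL1A1, COL1A2, COL4A1, COL4A2, COL7A1, ITGB1, ITGA6, ITGA10 and other members outside that rule are named to account for all 37, or because they are partner chains. Single markers or lists covered epithelial, mesenchymal, Müllerian or mesothelial, breast luminal, breast basal, stromal fibroblast, leukocyte and endothelial genes; CDH1, ESR1, TFF1, KRT5, DCN, PDGFRA, PTPRC and VWF were not used here. The alternatives were another pseudocount (1 RPKM), no filter or a minimum of 1 RPKM, median-of-ratios scaling, limma-voom on the recovered reads, a replicate block, 1 fit over 24 libraries, the 4 libraries alone, DMSO of day 3 as the control, and each library left out.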

Additional observations from a re-analysis of the deposited data

Results flagged for a closer look

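Effects of EPZ015666 that differed between days or lines are repeated here with the test of the difference. In BT549 the log2 change was lower at day 5 than at day 3 by limma's interaction term for COL3A1 (difference -0.86), COL12A1 (-0.69), COL4A5 (-0.57) and COL1A2 (-0.46).

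Between the 4 lines at day 5, the members with the smallest adjusted p in limma's F test spanned the following ranges of log2 change. COL9A2 spanned 1.99 and COL1A1 1.20, and COL12A1 spanned 1.12. COL6A1 and COL18A1 each spanned 0.68, ITGB5 0.65, COL4A2 0.60 and COL6A2 0.55. The F test was also passed by the other 7 members measured in every line.

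COL7A1 rose in both libraries of OVCAR8 and COV362 and fell in both of MDAMB436, a span of 0.98 on the log2 scale. This difference was not tested, because COL7A1 was below the filter in BT549.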

How the results depend on the processing

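Neither a pseudocount of 1 RPKM nor either median-of-ratios scaling (that over genes of at least 1 RPKM was chosen after seeing the data) moved a count of calls by over 1.5 times, and no scaling shifted the median change of all genes by 0.1. Groups of 2 libraries limit the precision of each change.

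With a minimum of 1 RPKM, which tests fewer genes, the calls were 7 in OVCAR8 at day 3 (11 as reported), 10 at day 5 (17), 11 in COV362 (19), 7 in MDAMB436 (11), 4 of 4 tested for the common effect (14), 4 of 4 between lines (15), 14 of 14 between lines under DMSO (32), 5 for OVCAR8 DMSO over time (8), 9 for the BT549 difference between days (4) and 1 for that of OVCAR8 (0). With no filter the common effect had 31 calls and the difference between lines 34. With limma-voom on the recovered reads the calls were 20 in BT549 at day 3 (12), 19 for BT549 DMSO over time (12), 12 for the BT549 difference between days (4), 18 in OVCAR8 at day 3 (11), 13 for OVCAR8 DMSO over time (8), 6 for the OVCAR8 difference between days (0), 21 in MDAMB436 (11) and 25 between lines (15); in OVCAR8 at day 5 it called 12 higher and 11 lower, against 7 and 10. With 1 fit over 24 libraries the calls were 20 for BT549 DMSO over time, 17 for the BT549 difference between days and 19 in MDAMB436. With the 4 libraries of the day alone BT549 at day 3 had 0 calls by limma (12 as reported, where 18 members had an unadjusted p under 0.05 in the fit of 8 libraries). The cause of these shifts was not tested, except that filters change the genes tested.

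The labels do not say whether the letters A and B pair the libraries. The correlation of the A minus B deviations of the DMSO and EPZ015666 groups was -0.16 and -0.10 in BT549 at days 3 and 5. It was -0.12 and 0.00 in OVCAR8, 0.18 in COV362 and -0.08 in MDAMB436. Each group gives 1 such deviation per gene, so these values cannot decide whether the letters pair the libraries. With the replicate block, limma called 0 members in BT549 at day 3, 0 for BT549 DMSO over time, 0 for the BT549 difference between days, 0 in MDAMB436, 6 in OVCAR8 at day 3 and 1 for OVCAR8 DMSO over time, and no called member reversed. With the letters crossed, chosen after seeing the data, 10, 20 and 10 members were called in BT549 at day 3, BT549 at day 5 and OVCAR8 at day 3.

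Leaving out 1 library gave 4 to 10 calls in BT549 at day 3, 15 to 21 at day 5, 0 to 8 for BT549 DMSO over time, 0 to 6 for the BT549 difference between days, 6 to 11 in OVCAR8 at day 3, 12 to 16 at day 5, 2 to 5 for OVCAR8 DMSO over time, 13 to 16 in COV362, 0 in MDAMB436 whichever library was left out, 12 to 14 for the common effect, 14 to 15 between lines and 32 to 33 between lines under DMSO. No called member reversed in those fits. With DMSO of day 3 as the control at day 5, BT549 had 3 higher and 14 lower and OVCAR8 5 higher and 8 lower. There COL4A1 (0.15) and COL4A2 (0.042) in BT549 and COL8A2 (0.035) in OVCAR8 reversed, none of them called in that direction.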
